A study of Homo sapiens with 3 samples.

Results

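The genes described here are 33 genes of the ATF4 branch of the integrated stress response, named in a list with earlier results of these data known. They were found through the symbols of the array annotation, current or older (WARS for WARS1), and all 33 had at least 1 probe (37 probes). After a filter on dim probes 31 of them were measured, among 14529 genes in all. They were grouped by role into 6 transcription factors, 6 stress effectors and feedback regulators, 4 secreted proteins and receptors, 9 enzymes of amino acid synthesis and folate metabolism, and 8 cytosolic tRNA synthetases.

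The cells were LS174T-tetON-NICD, derived from LS174T, a human colon carcinoma line, and carrying a doxycycline-inducible NICD, the intracellular part of Notch that acts on transcription once it is cut from the receptor. Cultures received tumour necrosis factor alpha (TNF, 50 ng/ml), doxycycline (100 ng/ml) or both agents for 24 h, and each was hybridised with RNA of untreated cells of the same line on 1 array, with treated RNA in Cy3 and control RNA in Cy5. There was 1 culture and 1 array per condition and no dye swap, so that no difference below has a replicate error or a p-value. All groups carry the transgene and no doxycycline-treated cells without it were among them, so NICD and doxycycline itself cannot be told apart. Whether the line is 1 clone is not given in the sources used here.

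In the integrated stress response, kinases that sense amino acid shortage, misfolded protein, double-stranded RNA or haem deficiency phosphorylate the initiation factor eIF2. General translation then falls while the mRNA of ATF4 is translated more, so that ATF4 activity is set to a large part at the protein level and its mRNA level is an incomplete guide to it. ATF4 pairs with C/EBP proteins and induces genes of amino acid synthesis, amino acid transport and tRNA charging, together with regulators such as CHOP (the DDIT3 protein) and TRIB3 that shape the outcome of long stress.

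ATF4 and its C/EBP partners bind a composite element, often written TGATGNAA. The windows that RefSeq (GRCh38.p14) gives from 250 bases before to 50 bases after a gene's start were searched for it on both strands. Of the 33 genes 29 had a window, while NUPR1, ALDH1L2, PSPH and SHMT2 had none and were not searched. The element was held by 10 of the 43 windows of these 29 genes (23.3%), against 1270 of 35116 windows in all (3.62%). The genes were listed as members of the ATF4 pathway, so this contrast is no independent evidence about them. The matches of 10 genes are shown because they place the element next to the genes described, with 10 bases on each side, the element in capitals and each sequence on the strand on which the element reads forward.
ATF3: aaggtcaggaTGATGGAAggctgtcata
CEBPG: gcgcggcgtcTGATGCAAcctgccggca
CHAC1: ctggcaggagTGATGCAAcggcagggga
FGF21: tcctcctcccTGATGCAAtcctggtgtt
ASNS: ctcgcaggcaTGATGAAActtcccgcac
GARS1: gctcggagcaTGATGAAAtcgccgcgta
AARS1: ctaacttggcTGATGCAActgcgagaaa
NARS1: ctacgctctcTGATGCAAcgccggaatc
MARS1: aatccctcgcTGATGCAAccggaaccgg
CARS1: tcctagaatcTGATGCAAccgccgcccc

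The set holds 5 of the 8 tRNA synthetase genes, and TGATGCAA is the form in 7 of the 10. On GRCh38.p14 the stretches shown, with the strand printed, are ATF3 at chr1:212565206-212565233 (plus), CEBPG at chr19:33374061-33374088 (plus), CHAC1 at chr15:40953252-40953279 (minus), FGF21 at chr19:48755460-48755487 (minus), ASNS at chr7:97872459-97872486 (minus). The others are GARS1 at chr7:30594835-30594862 (minus), AARS1 at chr16:70289676-70289703 (plus), NARS1 at chr18:57621805-57621832 (minus), MARS1 at chr12:57488054-57488081 (minus), CARS1 at chr11:3057408-3057435 (plus). Counted along the gene, the match began at position -68 in ASNS, -209 in CHAC1, -42 in CEBPG and -187 in AARS1, where -1 is the last base before the start. The symmetric cyclic AMP element TGACGTCA, no match of which overlapped one of the other motif in these genes, was found in 649 of all windows (1.85%) and in 1 of the 43, that of PPP1R15A at position -58 (chr19:48872353-48872380, plus strand).
PPP1R15A: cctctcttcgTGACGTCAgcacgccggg

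The 250 bases before the start are given for CHAC1 (chr15:40953221-40953470, plus strand, element on the other strand in capitals) and for GDF15 (chr19:18385908-18386157, plus strand). CHAC1 holds the element there, and GDF15 holds neither motif in this window. Both genes stood below control on the arrays with doxycycline. A match is a description of letters only, and no binding was measured.
CHAC1: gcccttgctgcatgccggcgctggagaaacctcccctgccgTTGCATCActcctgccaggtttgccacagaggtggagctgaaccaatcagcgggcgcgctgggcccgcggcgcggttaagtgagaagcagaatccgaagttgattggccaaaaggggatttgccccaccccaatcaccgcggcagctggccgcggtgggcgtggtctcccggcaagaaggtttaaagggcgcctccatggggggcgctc
GDF15: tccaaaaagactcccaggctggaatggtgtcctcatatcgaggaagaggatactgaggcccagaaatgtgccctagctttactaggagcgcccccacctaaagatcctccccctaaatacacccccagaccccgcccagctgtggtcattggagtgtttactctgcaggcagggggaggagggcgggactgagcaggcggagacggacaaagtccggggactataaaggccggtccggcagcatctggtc

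Signals below are spot intensities above the mean of the blank spots, and the 2 dyes are not on 1 scale. Ratios are log2 of treated over control after normalisation, and a gene is called higher or lower from 2-fold (a log2 ratio of 1) on. On the TNF array the treated channel was dim: its median signal was 18.6, against 55.7 with doxycycline and 61.7 with both agents, while the control medians were 35.6, 30.7 and 30.6. Several probes of 1 gene differed there with a pooled SD of 0.739 on the log2 scale, against 0.241 with doxycycline and 0.295 with both (1747 genes). The control channels gave a technical yardstick, in levels taken after Aquantile normalisation. That step gives the arrays the same distribution of the mean intensity of both channels, so the levels are not independent of the treated channel. Among the 31 genes the log2 control level differed between arrays with an SD of 0.119 (TNF and doxycycline), 0.174 (TNF and both) and 0.111 (doxycycline and both). Ratios of the TNF array are therefore less certain than those of the other arrays wherever they are set beside them. NOTCH1 stood at -1.48, -0.43 and -0.72, and whether its probe matches the transgene was not tested. The treatments were visible in TNFAIP3, an NF-kB feedback gene, at 3.48 with TNF and 3.01 with both, and in HES1, a Notch target, at 1.35 with doxycycline and 1.00 with both. Of 10 epithelial markers 9 were measured, whereas PTPRC, CD3E and COL1A1, which define leukocytes, T cells and fibroblasts, did not pass the filter. Others of the same lists did: 2 of 5 for leukocytes (LYZ and CD14), 2 of 5 for fibroblasts (DCN and LUM) and 2 of 3 for endothelium (VWF and CDH5). Of these 6, LUM (0.71) and LYZ (0.63) stood above control with both agents, the other 4 lay between -0.31 and -0.02 there, and their part in the results below was not tested. Fewer cells of a type and less RNA per cell cannot be told apart in such pooled RNA.

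**Figure D1:**
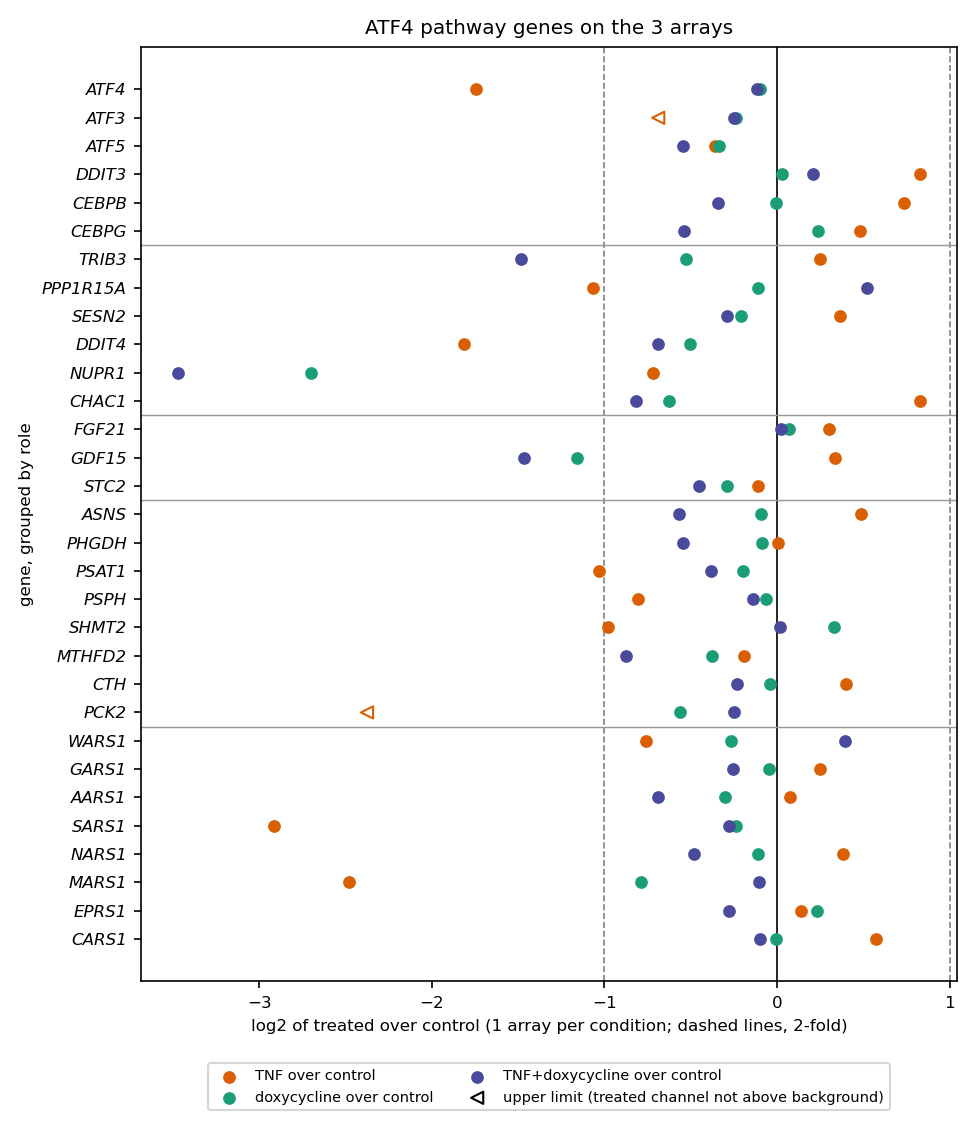
Log2 ratio of treated over control (horizontal axis) for the 31 measured genes, 1 point per array, grouped by role from the transcription factors at the top to the tRNA synthetases at the bottom. Open triangles mark values whose treated channel was not above background, and they are no strict bounds. NUPR1 lies furthest left with doxycycline (-2.70) and with both agents (-3.47), most other points of these arrays lie within 2-fold (dashed lines), and the points of the TNF array spread from -2.91 to 0.83.

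With doxycycline, and more so with doxycycline and TNF, a few stress effectors stood well below control while ATF4 itself and most of its metabolic targets stayed within 2-fold. NUPR1, a small stress-induced chromatin protein, was 6.49-fold lower with doxycycline and 11.1-fold lower with both. GDF15, a secreted stress cytokine of the TGF-beta family, was 2.23-fold and 2.76-fold lower as the mean of a bright probe (log2 ratios of -2.29 and -2.89) and a dim one (-0.03 and -0.04), and TRIB3, a pseudokinase that inhibits AKT and ATF4, was 1.44-fold and 2.80-fold lower. With doxycycline 2 of the 31 genes were at least 2-fold lower, where 0.406% of all 14529 genes were, and 0 were higher, where 1.18% of all genes were. With both agents 3 were lower, where 2.13% of all genes were, and 0 were higher, where 3.17% were.

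The median of the 31 genes was -0.20 with doxycycline and -0.29 with both agents, against 0.01 and 0.00 for all genes. With doxycycline 26 of 31 genes were below 0, against 6862 of all 14529, but with median centring in place of the intensity-dependent loess only 8 were and the median turned to 0.24, against 0.14 for all genes. With both agents 26 genes were again below 0, against 7163 of all 14529. Median centring gave 14 and a median of 0.03, against 0.13 for all genes. A small shift of the whole group is thus not settled on either array. In each setting that gave them a value (10 of 11 for ATF3 and PCK2), 8 genes stayed below 0 with doxycycline (ATF3, TRIB3, DDIT4, NUPR1, CHAC1, GDF15, PCK2 and MARS1) and 13 with both agents. Above 0 in every setting were 4 genes with doxycycline (CEBPG, FGF21, SHMT2 and EPRS1) and 3 with both (DDIT3, PPP1R15A and WARS1). The other 19 and 15 of the 31 changed sign between settings. How many of all genes kept their sign was not counted. For a gene with 1 probe, settings that change only the filter or the choice of probe leave the ratio as it is.

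Among the transcription factors, ATF4 had 2 probes that disagreed. Its bright probe gave control signals of 3863 (TNF), 2494 (doxycycline) and 2427 (both agents), the order kept below, against treated signals of 1230.0, 3433 and 2785, and log2 ratios of -2.26, -0.43 and -0.62. The dim probe (control signals 94.9, 87.6 and 67.9) gave 0.24 with doxycycline and 0.38 with both, and its treated spot was not above background on the TNF array. The mean of both probes was -0.10 with doxycycline and -0.12 with both, so that a direction for ATF4 mRNA depends on the probe.

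DDIT3, which encodes the stress transcription factor CHOP, had treated signals of 334, 221 and 276 against controls of 156, 124 and 129. Its log2 ratios were 0.83 with TNF, 0.03 with doxycycline and 0.21 with both, all within 2-fold. CEBPB, a C/EBP factor that also acts in inflammation, stood at 0.74, -0.01 and -0.34 in the same order, and the sign of the last 2 changed between settings. CEBPG, a dimer partner of ATF4, stood at 0.48, 0.24 and -0.54, its treated signals being 1138, 1014 and 587 over controls of 564, 460 and 498. All of these C/EBP ratios were within 2-fold. ATF5, a factor related to ATF4, was below control on all 3 arrays, at -0.36, -0.34 and -0.54. ATF3, an immediate stress response factor, was dim throughout (controls 40.1, 32.3 and 33.5) and stood at -0.24 with doxycycline and -0.25 with both.

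With doxycycline and with both agents, the effectors and feedback regulators held the widest differences of the 5 role groups. NUPR1 had control signals of 3509, 2987 and 2940, and treated signals of 3452 with TNF, 801 with doxycycline and 412 with both. The 3 controls lay close together, and the treated spots with doxycycline were far below the one with TNF alone, whose log2 ratio was -0.72 (0.06 in the authors' processed values). The log2 ratio of -2.70 was the lowest of all 14529 genes with doxycycline, and that of -3.47 was the third lowest with both. Over the settings tried it ran from -2.77 to -2.17 and from -3.74 to -3.03.

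TRIB3 had control signals of 1527, 1353 and 1359, and treated signals of 2880.5, 1724 and 816. Its log2 ratios were 0.25 with TNF, -0.53 with doxycycline and -1.48 with both, and the last ran from -1.64 to -1.05 over the settings. CHAC1, an enzyme that degrades glutathione, had treated signals of 266, 93.2 and 68.9 over controls of 128, 108 and 99.3. Its ratios of 0.83, -0.63 and -0.82 followed the same order as those of TRIB3, above control with TNF and lowest with both. In the authors' processed values CHAC1 was past 2-fold on the arrays with doxycycline, at -1.07 and -1.43.

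DDIT4, an inhibitor of the growth kinase mTORC1, stood at -0.50 with doxycycline and -0.69 with both. SESN2, a sestrin that senses leucine for the same kinase, stood at -0.21 and -0.29. PPP1R15A encodes GADD34, the phosphatase subunit that reverses eIF2 phosphorylation, and it was the effector that stood above control with both agents. Its treated signals were 7.23 with TNF, 128 with doxycycline and 244 with both, over controls of 92.3, 84.9 and 82.6. The log2 ratios were -1.07, -0.11 and 0.52, and the last stayed above 0 in every setting (0.25 to 0.80). Its treated spot on the TNF array was barely above background, and that ratio ran from -3.59 in the authors' processed values to -0.06 when the scanner's local background was subtracted.

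Of the secreted proteins, GDF15 had a bright and a dim probe. The bright probe gave control signals of 2128, 1774 and 1728 and treated signals of 5254, 621 and 356. The controls lay close together, and both treated spots with doxycycline were far below the one with TNF alone. Its log2 ratios were 0.59, -2.29 and -2.89. The dim probe (controls of 16.4 to 17.6) gave 0.08, -0.03 and -0.04, so that the gene averages of 0.33, -1.16 and -1.46 given above lie between the values of the probes.

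STC2, the glycoprotein stanniocalcin, had log2 ratios of -0.11, -0.29 and -0.45. FGF21, a hormone of starvation, was dim (controls 19.2, 16.8 and 16.3) and stood at 0.30, 0.07 and 0.03. VLDLR, a lipoprotein receptor, did not pass the filter, and its control signals of 0.82, 0.33 and 0.01 were not above background on any array.

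Of the enzymes of amino acid synthesis and folate metabolism, 0 of the 8 measured reached 2-fold with doxycycline (median -0.09, range -0.56 to 0.33) or with both (median -0.31, range -0.87 to 0.02). The shares of all genes given above (0.406% lower and 1.18% higher with doxycycline, 2.13% and 3.17% with both) are so small that a count of 0 among 8 says nothing particular of these genes. MTHFD2, the mitochondrial folate enzyme, was the lowest with both: its treated signals were 2319, 2084 and 1458 over controls of 1690.1, 1464 and 1541, and its log2 ratios were -0.19, -0.38 and -0.87. ASNS, which makes asparagine, had treated signals of 1740, 1155 and 746 over controls of 820.3, 667 and 644. Its ratios were 0.48, -0.09 and -0.57, again above control with TNF and below it with both agents.

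Serine synthesis runs through PHGDH, PSAT1 and PSPH. The 2 probes of PHGDH were close to each other, at -0.08 and -0.09 with doxycycline and -0.53 and -0.55 with both. PSAT1 stood at -0.20 and -0.38, and PSPH at -0.06 and -0.14. SHMT2, which moves a carbon unit from serine to folate, stood at 0.33 and 0.02, and CTH, the last enzyme of cysteine synthesis, at -0.04 and -0.23. PCK2, the mitochondrial PEP carboxykinase, stood at -0.56 and -0.25. ALDH1L2, a mitochondrial folate dehydrogenase, did not pass the filter, with control signals of 2.16, 4.62 and 2.41.

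Each tRNA synthetase attaches an amino acid to its tRNA, and 0 of the 8 reached 2-fold with doxycycline (median -0.17) or with both (median -0.26), which is again near the shares of all genes (0.406% and 1.18%, then 2.13% and 3.17%). AARS1, the alanine enzyme, was the lowest with both at -0.69, with treated signals of 8374, 5528 and 4185 over controls of 4722, 3665 and 3830.3. NARS1 for asparagine stood at -0.11 and -0.48, EPRS1 for glutamate and proline at 0.23 and -0.28, SARS1 for serine at -0.24 and -0.28, GARS1 for glycine at -0.05 and -0.25, and CARS1 for cysteine at -0.00 and -0.10. MARS1 for methionine was the lowest with doxycycline, at -0.79, and stood at -0.11 with both. Its treated signals were 275 and 525 over controls of 296 and 321.

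WARS1, the tryptophan enzyme, was the 1 synthetase of the 8 above control with both agents. It is known to be induced by interferon gamma as well as by ATF4. Its treated signals were 561 with TNF, 983 with doxycycline and 1210 with both, over controls of 733, 646 and 509, with log2 ratios of -0.76, -0.27 and 0.39. The ratio with both agents was above 0 in every setting (0.35 to 1.44). Beside it, 4 of 8 measured interferon gamma response genes were at least 2-fold higher with both agents, where 3.17% of all genes were, namely PSMB9 (2.13), B2M (1.68), IRF1 (1.45) and TAP1 (1.30). The other 4, IRF9 (0.37), GBP1 (0.24), GBP2 (-0.02) and IDO1 (-0.03), were not. With doxycycline 0 of the 8 were higher, and with TNF alone 1 was, where 1.18% and 1.80% of all genes were. A part of interferon gamma or of ATF4 in the values of WARS1 was not tested.

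The effect of adding TNF to doxycycline was read as the difference between the log2 ratios of those arrays. None of the 31 genes differed by 2-fold, higher or lower, where 1.18% and 0.909% of all genes did. Of the 31 differences 26 were below 0, against 7350 of all 14529, and the median was -0.19, against -0.003 for all genes. In the other settings the median of the 31 genes ran from -0.29 (the authors' processed values) to -0.18 and was -0.24 with median centring, so that it stayed below 0 where the medians over control did not. TRIB3 was the lowest at -0.95, followed by CEBPG and NUPR1 at -0.77 each, EPRS1 at -0.51 and MTHFD2 at -0.50. The highest were MARS1 at 0.68, WARS1 at 0.66 and PPP1R15A at 0.63.

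The channels of these arrays were also compared one by one, in the levels after Aquantile normalisation. For TRIB3 the treated level differed by -0.95 and the control level by 0.01, and for NUPR1 by -0.78 and -0.01. PPP1R15A differed by 0.62 in the treated and -0.01 in the control channel. For WARS1, however, the treated level was 0.37 higher and the control level 0.29 lower (-0.29), and for EPRS1 the control level differed by -0.26 beside -0.77 in the treated channel. In these levels the differences of TRIB3, NUPR1 and PPP1R15A lay in the treated channel, and that of WARS1 in both.

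**Figure D2:**
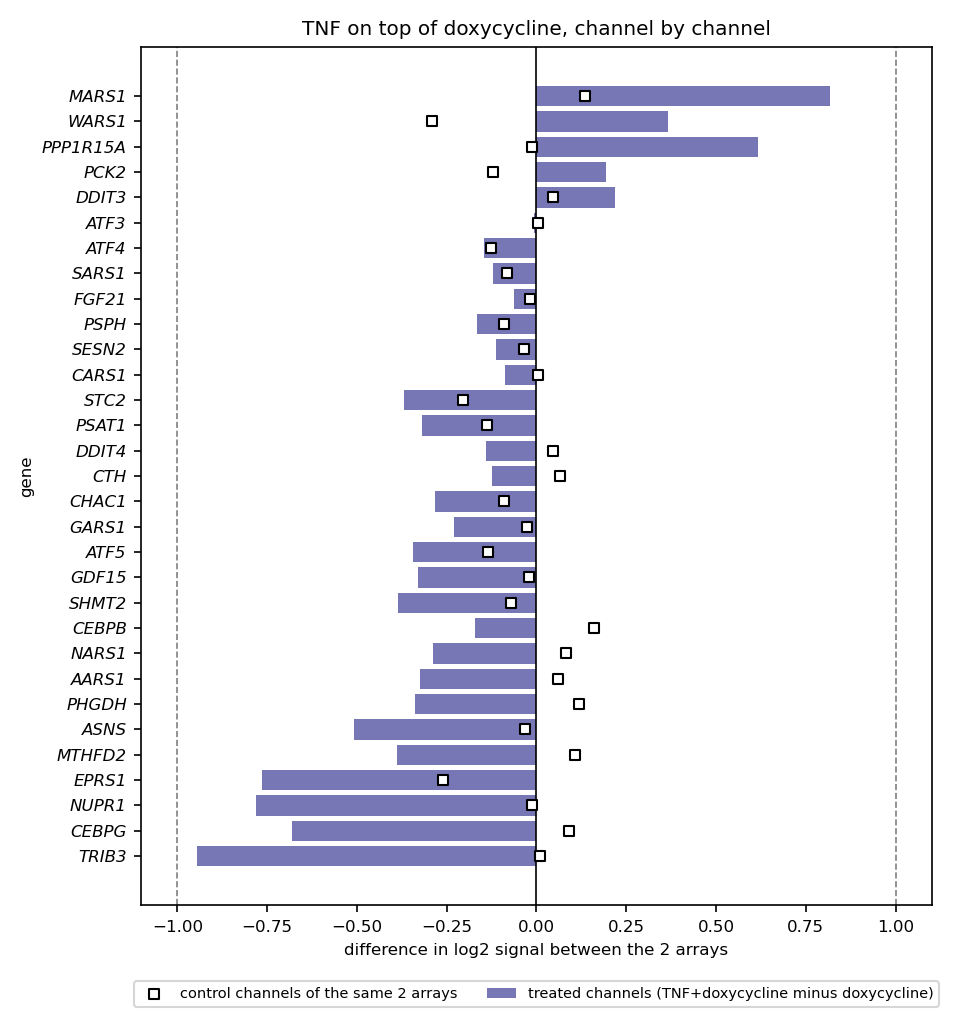
Difference in log2 signal after Aquantile normalisation between the TNF+doxycycline and the doxycycline array for each gene, ordered by the difference in ratio. Bars show the treated channels and open squares the control channels. TRIB3 at the bottom has the longest bar to the left (-0.95) with its control near 0, MARS1 at the top has the longest to the right (0.82), and the control of WARS1 lies at -0.29.

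On the TNF array 7 of the 31 genes were at least 2-fold lower, where 12.3% of all genes were, and 0 were higher, where 1.80% were; the median was 0.01, against -0.01 for all genes. The lower genes were SARS1 (-2.91), MARS1 (-2.48), PCK2 (-2.38, treated spot not above background), DDIT4 (-1.82), ATF4 (-2.26 by its bright probe), PPP1R15A (-1.07) and PSAT1 (-1.03). Their values sit beside the marks of that array described above. The 2 probes of SARS1 gave -1.15 and -4.68, with treated signals of 650.1 and 6.72 over controls of 1069 and 1435. The dim probe of ATF4 had a treated spot not above background, so that the mean over its probes, -1.75, is no exact value. The treated spot of PCK2 was not above background (2.67 over a control of 285). Its value, 5.19-fold lower, is thus no exact one, and the log2 ratio ran from -3.45 to -1.97 over the settings. That of ATF3 was not above background either, so that 1.61-fold lower is no exact value.

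When TNF was given with doxycycline, MARS1 came to -0.11, SARS1 to -0.28, PCK2 to -0.25 and ATF4 to -0.12. The part of the array's dim treated spots in the low values was not tested. On the other side DDIT3 and CHAC1 stood at 0.83 each, CEBPB at 0.74, CARS1 at 0.57 and ASNS at 0.48. None of these was past 2-fold in the setting used here. In the authors' processed values 9 of the 29 genes with a value were at least 2-fold higher (median 0.67, against 0.004 for all genes). With median centring 4 were (median 0.42, against -0.038 for all genes). The share of all genes past 2-fold was not counted in those settings. For TNF alone, direction and size for this group thus rest on the normalisation.

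Doxycycline on top of TNF, the combined minus the TNF array, gave 7 genes at least 2-fold higher, where 14.0% of all genes were, and 7 lower, where 3.29% were. The lower genes were NUPR1 (-2.75), GDF15 (-1.80), TRIB3 (-1.73), CHAC1 (-1.64), CEBPB (-1.08), ASNS (-1.05) and CEBPG (-1.02). The higher genes were SARS1, MARS1, PCK2, ATF4, PPP1R15A, WARS1 and DDIT4, from 2.64 to 1.12. This reading contains the TNF array with its dim treated spots, and the treated level of GDF15 differed by -1.95 and that of CHAC1 by -2.02 while their control levels differed by -0.15 and -0.38.

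Other genes of the pathway were taken from lists chosen with earlier results of these data known. Of 7 measured amino acid transporters under ATF4, 2 were at least 2-fold lower with doxycycline and 3 with both agents, where 0.406% and 2.13% of all genes were, and 0 were higher on either array. SLC7A5, the large neutral amino acid transporter, stood at -1.94 and -3.04, its partner SLC3A2 at -1.01 and -1.17, the glutamine transporter SLC1A5 at -0.51 and -1.36, and the cystine transporter SLC7A11 at -0.63 and -0.95. The other 3 stood at -0.42 and -0.19 (SLC7A1), -0.09 and 0.65 (SLC38A2) and 0.01 and -0.98 (SLC1A4). With TNF alone 6 of the 7 were lower, in an array where 12.3% of all genes were. Among the eIF2 kinases, eIF2 and eIF2B subunits and related factors, 0 of 14 were past 2-fold with doxycycline, where 1.18% of all genes were higher and 0.406% lower. With both agents 2 were higher, where 3.17% of all genes were, the eIF2 subunit EIF2S3 (1.03) and EIF2AK2, the kinase PKR (1.01).

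Of 11 further cytosolic tRNA synthetases 1 was lower with each treatment that held doxycycline, where 0.406% and 2.13% of all genes were. That gene was VARS1, at -1.22 and -1.17. Of 16 mitochondrial ones 0 were past 2-fold on either array, near the shares of all genes (1.18% and 3.17% for higher). Chaperones and other unfolded protein response genes of the endoplasmic reticulum, the branch beside ATF4, had 1 of 16 lower with doxycycline, where 0.406% of all genes were, and 0 with both, where 2.13% were. That gene, HYOU1, stood at -1.21 with doxycycline and just short of 2-fold, at -0.99, with both. HSPA5, the chief chaperone of that compartment, stood at 0.06 on both arrays. Of 8 further folate and methionine enzymes 2 were lower with both agents, where 2.13% of all genes were, and 0 with doxycycline, where 0.406% were. The lower enzymes were MAT2A (-1.14) and TYMS (-1.16), the latter as the mean of probes at -0.77 and -1.55.

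**Figure D3:**
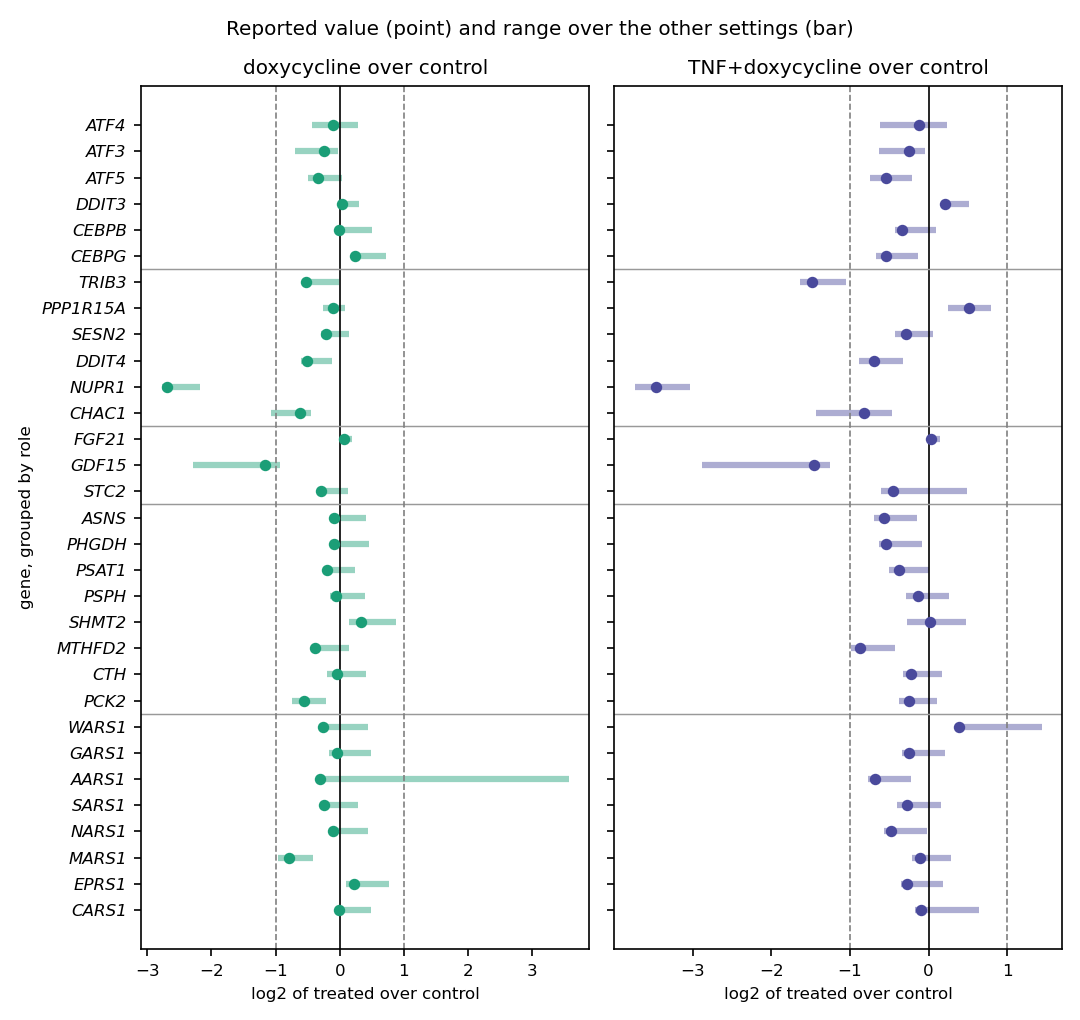
Log2 ratio of each gene with doxycycline and with both agents, with the point for the value reported and the bar for its range over the other settings tried. NUPR1 keeps below -2 on each array, the bars of most enzymes and synthetases cross 0 with doxycycline, and the long bar of AARS1 there ends at 3.57, the value after subtraction of the scanner's local background.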

How the data were processed

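Two-colour oligonucleotide arrays were read as 1 scanner file each. Per the file headers, the deposited values are median spot intensities at both wavelengths, joined over scans at 3 gains. The series table holds log2 ratios that the authors deposited, and after removal of a constant all 18330, 19535 and 19605 of them on the TNF, doxycycline and combined arrays lay within 0.001 of log2 of Cy3 over Cy5 above the blanks, so they run as treated over control and are median-centred. Aligners and genome builds do not apply, and the annotation is that of the array's design.

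The 5%-trimmed mean of 2680 blank spots was the background. In limma 3.58.1 (R 4.3.3), normexp with a saddle-point fit and an offset of 50 corrected the signals, and loess within each array normalised them, control spots having weight 0 and 3 spots marked as bad on the TNF array left out. Above background means over the 95th percentile of the blanks. A probe was kept if on each array it passed this in Cy3 or Cy5 (16336 probes), and probes of 1 gene were averaged. Of 24460 probes 20236 had 1 symbol, 0 had several and 4224 had none. Symbols were updated through a current gene table, and GARS, MARS and other synthetase symbols were read as the synthetases. Limits compare the bright channel with the higher of the dim spot and the lowest spot above background. They are no strict bounds. The procedure was tested on simulated arrays with known changes in bright probes only. Dim probes and the dim treated channel of the TNF array were not covered by it. Python 3.11.15 with pandas 2.3.3 and matplotlib 3.10.9 was used for the rest.

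With 1 array for each condition nothing could be tested, and precision is limited by how few arrays there are. All 33 genes are named, with SLC7A5, SLC3A2, SLC7A11 and HSPA5 and up to 3 highest and 3 lowest genes past 2-fold on the combined array of each further list. VARS1 and HYOU1 with doxycycline, the markers, and the remaining transporters and interferon gamma response genes were named after their values were seen. The genes and lists were chosen with earlier results of these data known.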

Additional observations from a re-analysis of the deposited data

How the results depend on the processing

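Of 10 other settings tried, 9 were planned. Aquantile normalisation leaves ratios within an array as they are. For genes with 1 probe, such as NUPR1 and TRIB3, so do the settings that change only the filter or the choice of probe. The settings counted below are thus not independent of each other. NUPR1 stayed past 2-fold in all 11 settings on each array, GDF15 in 10 of 11 with doxycycline and in 11 with both, and TRIB3 in 11 with both. With TNF, ATF4, DDIT4, SARS1 and MARS1 stayed past 2-fold in 10 of 10 settings and PCK2 in 8 of 8. No ratio of the 31 genes reported as past 2-fold turned its direction under these settings, and the genes of the further lists were not run under them.

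The counts and medians over the 31 genes moved more. The share of all genes past 2-fold was not counted in the other settings, so these counts stand without it. With median centring, 4 genes were at least 2-fold higher with TNF in place of 0, 1 lower with doxycycline in place of 2 and 1 lower with both agents minus doxycycline in place of 0, and the medians were 0.42 (TNF), 0.24 (doxycycline) and 0.034 (both). With the local background of the scanner, 1 gene was higher on each array in place of 0 (CARS1, AARS1 and WARS1), 3 were lower with both minus doxycycline in place of 0, and the median with doxycycline was -0.041. In the authors' processed values, 9 were higher with TNF, 1 was lower with both minus doxycycline and 16 with both minus TNF in place of 7, and the medians were 0.67 with TNF and -0.43 with both. The causes were not tested. A filter that left out the TNF array, chosen after seeing the data, gave 32 genes and the same 2 and 3 lower genes by number. Low signals limit ATF3, FGF21, PPP1R15A and the dim probes of ATF4 and GDF15, whose ratios the offset of 50 draws towards 0. No paired analysis was possible because a group is 1 sample.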
